A study of Mus musculus with 49 samples.

Results

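Hes1, Hes5 and Hes6, Hey1 and Heyl, Nrarp and Dtx1, genes of the Hes and Hey families and other genes tied to Notch signalling, were followed across RNA sequencing libraries of mouse intestinal crypt cells. They were taken by name from a table of read counts with 24062 genes. All 7 were in the table, and all 7 were among the 14837 genes left by a filter on low counts. Over the 24 libraries of the replicated groups, Hes1, Hes6 and Nrarp had at least 10 counts in 24 libraries each, Dtx1 in 19, Heyl in 17, Hes5 in 9 and Hey1 in 5. Total counts over all 25 libraries, the irradiated one included, were 55646 for Hes6, 38169 for Hes1, 21568 for Nrarp and 2350 for Dtx1. They were 665 for Heyl, 310 for Hes5 and 124 for Hey1, which left Hes5 and Hey1 with the fewest counts.

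The series set stem cells, progenitors and mature cells of the mouse intestinal epithelium beside each other. Of its 49 samples, 25 RNA libraries in 12 groups were used, and 24 were not analysed here. All cells were epithelial cells of adult mice on a mixed B6;129 background, taken from the proximal intestine. Library totals ran from 11179085 to 27371108 counts.

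The groups of unsorted crypts carry a floxed gene. Rbpj-deleted crypts (2 libraries) came from Rbpj F/F; Villin-CRE mice on day 3 after 2 mg tamoxifen given 2 times a day for 2 days, and the labels call them secretory progenitors. DBZ crypts (2 libraries), also called secretory progenitors, came from Atoh1 F/F mice with no Cre in the label, given 48 mg/kg of the gamma-secretase inhibitor dibenzazepine (DBZ) at 0 and 12 h and harvested at 38 h. Enterocyte progenitor crypts (2 libraries) came from Atoh1 F/F; Villin-CRE mice 3 weeks after 1 mg tamoxifen on 5 days. Villin-Cre acts throughout the intestinal epithelium. No unsorted crypts without a deletion or an inhibitor were among these groups.

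The other groups were sorted. The goblet sort (2 libraries) held CD69+CD274+ cells of wild-type mice harvested 115 h after the same DBZ doses. CD274+CD69+ DT cells (2 libraries) came from mice labelled wild type, 1 day after 4 injections of 50 µg/kg diphtheria toxin on alternate days, and CD274+CD69+ control cells (2 libraries) from wild-type mice without toxin. The labels of the toxin group name no toxin receptor allele. Irradiated Bmi1-GFP cells (1 library) were sorted 36 h after 10 Gy to the whole body, and untreated Bmi1-GFP cells (3 libraries) were GFP+ cells of the same Bmi-1GFP/+ line. Enteroendocrine cells (2 libraries) were sorted as CD24 high and negative for UEA lectin, and Paneth cells (2 libraries) as CD24 high and UEA lectin high, both from wild-type mice. Lgr5-GFP-DTR stem cells (2 libraries) were GFP+ cells of the Lgr5EGFP-DTR line. Lgr5-GFP-Cre stem cells (3 libraries) were the brightest GFP cells of the Lgr5EGFP-IRES-CRE-ERT2 line.

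Notch is a receptor that is cut by gamma-secretase once a ligand such as Dll1, Dll4 or Jag1 on a neighbouring cell has bound it. The released intracellular domain joins the DNA-binding protein RBPJ and coactivators of the Mastermind family and switches on target genes. In the intestinal crypt this signal maintains stem cells and favours the absorptive fate, in part because the repressor Hes1 holds down Atoh1, the transcription factor that starts the secretory fate. Hes1 and Hes5 are basic helix-loop-helix repressors, and Hey1 and Heyl belong to a related family of repressors. Hes6 is an atypical Hes protein that inhibits Hes1. Nrarp is a small ankyrin-repeat protein that acts as a feedback inhibitor of the Notch and RBPJ complex. Dtx1 encodes Deltex 1, a ubiquitin ligase that binds the intracellular domain of Notch.

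The genes lie apart in the genome. In the RefSeq annotation of GRCm38.p6 all 7 are protein coding. Hes1 is at chr16:30065357-30067796, Hes5 at chr4:154960626-154962372, Hes6 at chr1:91411483-91414038, Hey1 at chr3:8663359-8667038, Heyl at chr4:123233556-123249870, Nrarp at chr2:25180758-25183339 and Dtx1 at chr5:120680203-120711867. RefSeq promoter windows were at hand for 4 of the 7 genes (Hes5, Hes6, Nrarp and Dtx1, with 2 windows for Hes6). The 250 bases before the start site were searched on both strands for GTGGGAA, the core sequence that RBPJ binds, and for CACGTG, an E box that Hes and Hey proteins and other helix-loop-helix proteins can bind. The Hes5 and Nrarp windows are shown because they held the matches. Both are on the plus strand of GRCm38.p6, with the matched letters in capitals. TTCCCAC is the RBPJ core read from the other strand.
Hes5 chr4:154960673-154960922: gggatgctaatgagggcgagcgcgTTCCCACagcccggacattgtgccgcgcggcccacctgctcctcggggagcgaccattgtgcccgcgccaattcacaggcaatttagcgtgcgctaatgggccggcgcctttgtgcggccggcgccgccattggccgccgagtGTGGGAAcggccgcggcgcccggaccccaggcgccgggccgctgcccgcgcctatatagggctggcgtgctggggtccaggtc
Nrarp chr2:25180508-25180757: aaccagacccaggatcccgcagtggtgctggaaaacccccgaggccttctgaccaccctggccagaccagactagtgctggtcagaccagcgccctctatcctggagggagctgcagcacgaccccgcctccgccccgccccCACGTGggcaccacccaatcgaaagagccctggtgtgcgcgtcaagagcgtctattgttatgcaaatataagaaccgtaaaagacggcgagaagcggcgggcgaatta

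The Hes5 window held 2 RBPJ cores on opposite strands. Their first bases on the plus strand lie 83 and 226 bases before the start site of that window. This start site is not the gene start given above, and the whole Hes5 window lies inside the gene span, so neither core lies upstream of that span. A Hes6 window also lies inside its gene span, and the Dtx1 window lies partly inside. Of 32851 such windows, 1779 (5.42%) held at least 1 RBPJ core and 53 (0.161%) held at least 2. The Nrarp window held 1 E box, which begins 108 bases before the start site, and 1978 windows (6.02%) held one. Neither sequence was found in the windows of Hes6 and Dtx1, and the RBPJ core was not found in that of Nrarp. A match describes letters in this window only.

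Sorted populations carried markers of their labels, with other cell types alongside. The summed level of a list of stem cell genes was 5271 to 7064 CPM (a gene's counts relative to its library's total, scaled by TMM) in Lgr5-GFP-Cre stem cells and 3611 to 3653 CPM in Lgr5-GFP-DTR stem cells. A list of Paneth genes summed to 159701 to 249898 CPM in Paneth cells and to 110173 to 142744 CPM in Lgr5-GFP-DTR stem cells, against 25725 to 32311 CPM in Lgr5-GFP-Cre stem cells. The goblet sort held an enterocyte sum of 92158 to 97375 CPM beside a goblet sum of 57713 to 95674 CPM. Enteroendocrine cells held a Paneth sum of 35414 to 39793 CPM beside an enteroendocrine sum of 13190 to 27469 CPM. Their tuft sum was 529 to 2611 CPM. Atoh1 stood at 1.56 and 1.81 CPM in enterocyte progenitor crypts, where it is deleted. Rbpj stood at 22.5 and 29.3 CPM in Rbpj-deleted crypts, at 40.9 and 33.0 CPM in DBZ crypts and at 44.9 and 45.4 CPM in enterocyte progenitor crypts. Rbpj was lower in Rbpj-deleted than in enterocyte progenitor crypts (log2 -0.80, SE 0.20, adjusted p = 0.00657). Gene-level counts also include exons outside any deleted stretch, and how complete the deletion was in these crypts was not tested.

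Both DBZ libraries stood apart from each other. Replicate 1 held 1135 CPM of the stem cell marker Olfm4 and 60.9 CPM of Atoh1, and replicate 2 held 62.8 CPM of Olfm4 and 125 CPM of Atoh1. The enterocyte sum was 2824 CPM in replicate 1 and 13937 CPM in replicate 2. The Paneth sum was 13604 CPM in replicate 1 and 3248 CPM in replicate 2, and the goblet sum 7041 and 8393 CPM. Values that rest on the DBZ crypts are therefore mostly given also without each library. In unsorted or mixed populations, fewer cells of a type and less RNA per cell cannot be told apart. Replicates are labelled biological, with no word on shared mice, litters or days, so p-values measure the spread between these libraries. Rbpj-deleted libraries were made with a TruSeq kit and the crypts they were compared with by SMART-Seq v4, so kit and deletion cannot be told apart. CD24 sorts and CD274 sorts were released with Dispase and Lgr5-GFP cells with TrypLE, so enzyme and cell type cannot be told apart there. Within the CD274+CD69+ control pair, replicate 1 was made with TruSeq and replicate 2 with SMART-Seq v4, the kit of the groups that pair was compared with. By contrast, Bmi1-GFP and both Lgr5-GFP lines share enzyme and kit.

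Across the 11 replicated groups, Hes1, Hes6 and Nrarp each had their highest mean level in Lgr5-GFP-Cre stem cells and their lowest in the goblet sort. Hes1 stood at 244, 203 and 222 CPM in Lgr5-GFP-Cre stem cells and at 163 and 77.1 CPM in Lgr5-GFP-DTR stem cells. It lay at 72.1 and 75.4 CPM in CD274+CD69+ DT cells, 73.2 and 70.1 CPM in CD274+CD69+ control cells, 87.6 and 58.1 CPM in enteroendocrine cells, 94.4 and 44.2 CPM in Paneth cells, with 67.1, 73.5 and 52.7 CPM for Bmi1-GFP cells. DBZ crypts had 85.1 and 31.9 CPM of Hes1, Rbpj-deleted crypts 45.5 and 55.3 CPM, enterocyte progenitor crypts 44.3 and 59.6 CPM, and the goblet sort 13.0 and 16.9 CPM. With the single irradiated library at 20.0 CPM, neighbouring groups in the order of mean Hes1 levels overlapped in 7 of 11 cases. All Lgr5-GFP-Cre libraries lay above every other library, and both goblet libraries lay below every other library.

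Nrarp followed a similar order with some exchanges. Lgr5-GFP-Cre stem cells had 94.9, 89.8 and 82.3 CPM of Nrarp, Rbpj-deleted crypts 85.0 and 63.6 CPM, Lgr5-GFP-DTR stem cells 54.6 and 75.2 CPM and CD274+CD69+ DT cells 65.4 and 55.0 CPM. DBZ crypts spanned 77.5 and 10.5 CPM, which covers the levels of most groups. The remaining groups ran through 38.5 and 34.5 CPM in CD274+CD69+ control cells, 28.5, 35.0 and 39.1 CPM for Bmi1-GFP cells, 22.8 and 30.5 CPM in Paneth cells, 27.1 and 27.7 CPM in enteroendocrine cells and 18.2 and 19.6 CPM in enterocyte progenitor crypts. The irradiated library had 12.8 CPM and the goblet sort 4.18 and 3.98 CPM. Neighbours overlapped in 7 of 11 cases.

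Hes6 was high in enteroendocrine cells as well as in stem cells. It stood at 255, 209 and 201 CPM in Lgr5-GFP-Cre stem cells, 232 and 169 CPM in enteroendocrine cells, 221 and 145 CPM in Lgr5-GFP-DTR stem cells and 133 and 167 CPM in enterocyte progenitor crypts. Next came DBZ crypts (87.0 and 140 CPM), CD274+CD69+ DT cells (92.6 and 81.3 CPM), Paneth cells (108 and 54.2 CPM), CD274+CD69+ control cells (80.8 and 71.7 CPM) and Bmi1-GFP cells (76.6, 80.1 and 51.7 CPM). Rbpj-deleted crypts had 66.9 and 53.3 CPM, the irradiated library 43.6 CPM and the goblet sort 35.9 and 38.0 CPM. Neighbouring groups overlapped in 9 of 11 cases.

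**Figure D1:**
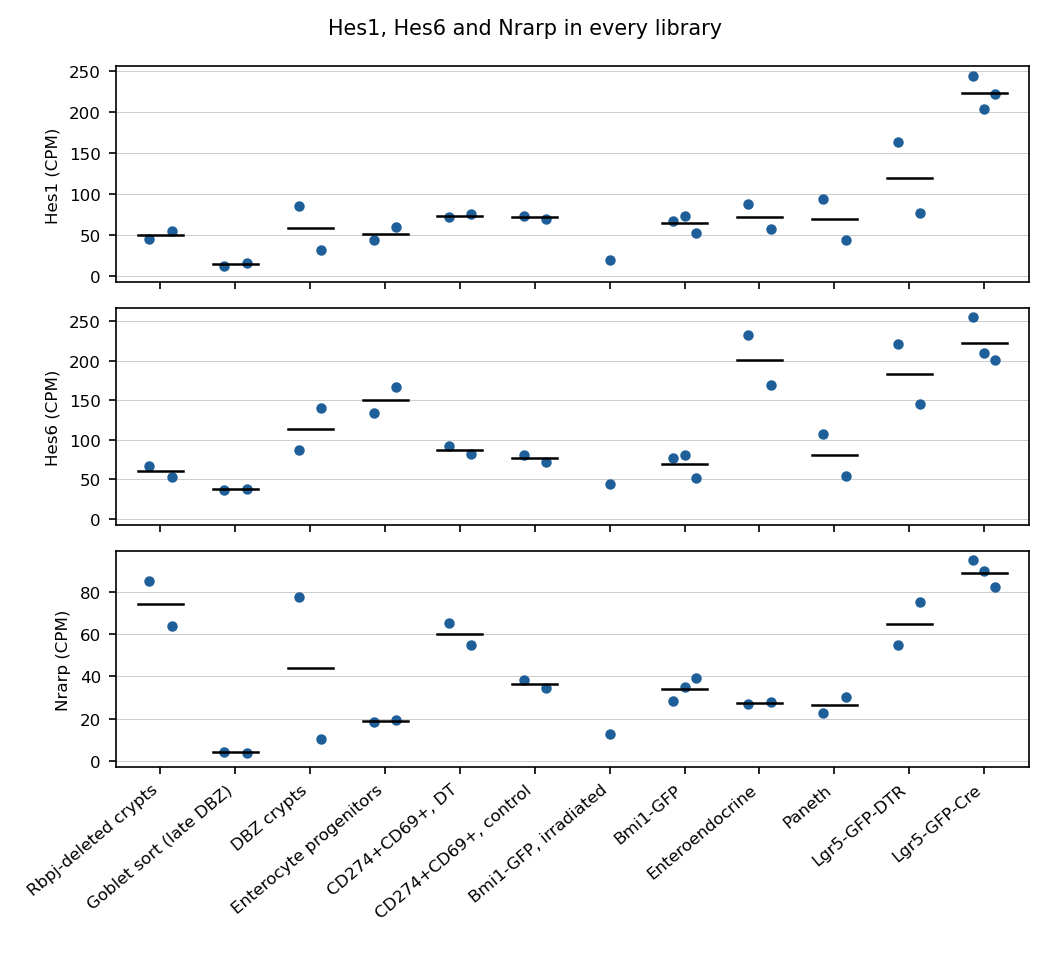
Levels of Hes1, Hes6 and Nrarp (y axes, TMM-scaled CPM) in each of 12 groups (x axis), where points are libraries and bars are means of groups with more than 1 library. Lgr5-GFP-Cre stem cells, at the right, lie between 203 and 244 CPM for Hes1, above every other library, and the goblet sort lies at 13.0 and 16.9 CPM.

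Unsorted crypts of mice given the Notch inhibitor DBZ were set against enterocyte progenitor crypts, a comparison of secretory with absorptive progenitors. The test was edgeR's quasi-likelihood test, and a gene was called at a Benjamini-Hochberg adjusted p below 0.05. It called 0 of 7 members, 3 had an unadjusted p below 0.05 (Hes5, Nrarp and Dtx1), and DESeq2 also called 0. Of all genes tested, 2.46% were called, 1.89% higher and 0.573% lower in DBZ crypts. Hes1 averaged 58.5 ± 37.6 CPM in DBZ crypts and 51.9 ± 10.9 CPM in enterocyte progenitor crypts (SD, n = 2 each), a log2 difference of 0.17 (SE 0.40, adjusted p = 0.974). Nrarp averaged 44.0 ± 47.4 CPM in DBZ crypts and 18.9 ± 0.994 CPM in enterocyte progenitor crypts (SD, n = 2 each; log2 1.22, SE 0.49, adjusted p = 0.281). The DBZ replicates lay on opposite sides of both enterocyte progenitor libraries for Hes1 and for Nrarp.

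The direction for both genes rested on which DBZ library was kept. Without DBZ replicate 1 the log2 difference was -0.65 for Hes1 and -0.79 for Nrarp (adjusted p = 0.158). Without DBZ replicate 2 it was 0.71 for Hes1 and 2.04 for Nrarp, and Nrarp was then called (adjusted p = 6.36e-05). Replicate 1, with the higher Hes1 and Nrarp, was also the replicate with the higher Olfm4 and the lower Atoh1. It had the lower enterocyte sum and the higher Paneth sum as well. The part of those differences in the result was not tested. With 1 library left in a group, that library is assumed to vary like the other groups. Hes5 (0.845 and 0.65 CPM in DBZ crypts, 0.2 and 0.191 CPM in enterocyte progenitor crypts) had a log2 difference of 1.90 (SE 0.81, adjusted p = 0.332), and its groups did not overlap (1.75 without replicate 1 and 2.08 without replicate 2 of the DBZ crypts). Dtx1 (0.946 and 1.22 CPM in DBZ crypts, 5.53 and 3.65 CPM in enterocyte progenitor crypts) had a log2 difference of -2.08 (SE 0.82, adjusted p = 0.263), again with no overlap (-1.85 and -2.27 without those replicates). Hes6 (87.0 and 140 CPM in DBZ crypts, 133 and 167 CPM in enterocyte progenitor crypts) differed by -0.41 (adjusted p = 0.742; -0.0498 without DBZ replicate 1 and -0.79 without DBZ replicate 2), Heyl by -0.59 and Hey1, with 8 counts in DBZ crypts and 5 in enterocyte progenitor crypts, by 0.79, and none of these was called.

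Secretory regulators differed widely in the same crypts. Of 9 listed genes of the early secretory fate, 5 were higher and 0 lower in DBZ crypts than in enterocyte progenitor crypts. Their median log2 difference was 2.20, against -0.01 over all genes tested. Atoh1 stood at 60.9 and 125 CPM in DBZ crypts and at 1.56 and 1.81 CPM in enterocyte progenitor crypts, where the gene is deleted (log2 5.77, SE 0.40, adjusted p = 6.40e-08). Spdef, a goblet and Paneth cell transcription factor, was higher in DBZ crypts (log2 5.45, SE 0.47, adjusted p = 7.71e-07), and so was Neurog3, which starts the enteroendocrine fate (log2 6.96, SE 0.98, adjusted p = 0.000240). Without DBZ replicate 1 or replicate 2, 6 or 5 of the 9 were higher and 0 lower, and the values were 6.25 and 5.16 for Atoh1, 5.92 and 4.86 for Spdef and 7.88 and 4.49 for Neurog3, each called. The 7 Notch target genes had a median log2 difference of 0.17. Against Lgr5-GFP-Cre stem cells, 0 of the 9 secretory genes were higher and 8 lower in enterocyte progenitor crypts (median log2 -2.46). In DBZ crypts 2 were higher and 3 lower than in those stem cells (median log2 0.58). The shares of all genes were 22.2% higher and 17.2% lower in enterocyte progenitor crypts, and 21% and 15.7% in DBZ crypts. The part of the low reference in the differences above was not tested.

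Rbpj-deleted crypts, in which the gene for the DNA-binding partner of Notch was targeted, were then set against enterocyte progenitor crypts. Nrarp was higher and Hes6 lower, and Hes1 was not called. These are 2 of 7 members, beside 28.2% of all genes tested (15.1% higher and 13% lower). Nrarp averaged 74.3 ± 15.1 CPM in Rbpj-deleted crypts and 18.9 ± 0.994 CPM in enterocyte progenitor crypts (SD, n = 2 each), with a log2 difference of 1.97 (SE 0.50, adjusted p = 0.00643). Both Rbpj-deleted libraries lay above both enterocyte progenitor libraries. The call was lost without enterocyte progenitor replicate 1 (log2 1.90, adjusted p = 0.0543) or replicate 2 (log2 2.02, adjusted p = 0.0528).

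Hes6 averaged 60.1 ± 9.62 CPM in Rbpj-deleted crypts and 150.2 ± 23.8 CPM in enterocyte progenitor crypts (SD, n = 2 each; log2 -1.32, SE 0.31, adjusted p = 0.00358). No Rbpj-deleted library reached the lower of the enterocyte progenitor libraries. Hes1 averaged 50.4 ± 6.93 CPM in Rbpj-deleted crypts and 51.9 ± 10.9 CPM in enterocyte progenitor crypts (SD, n = 2 each), and its log2 difference of -0.04 (SE 0.40, adjusted p = 0.957) had its sign turned, to 0.0292, by DESeq2's size factors. The Hes1 ranges overlapped. Hes5 (log2 0.86), Heyl (1.0), Hey1 (0.96) and Dtx1 (0.61) were not called. Of the secretory list, 5 of 9 genes were higher and 1 lower (Sox4, log2 -1.7), and Atoh1 differed by 4.24 on the log2 scale (SE 0.37, adjusted p = 2.69e-07).

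Between the Notch interventions, Rbpj-deleted crypts had less Hes6 and more Dtx1 than DBZ crypts. These are 2 of 7 members, beside 24.7% of all genes (12.9% higher, 11.9% lower). Hes6 differed by -0.92 on the log2 scale (SE 0.31, adjusted p = 0.0348), with both Rbpj-deleted libraries below both DBZ libraries. The Hes6 call was lost without DBZ replicate 2 (log2 -0.54, adjusted p = 0.344), Rbpj replicate 1 (log2 -1.11, adjusted p = 0.0530) or Rbpj replicate 2 (log2 -0.84, adjusted p = 0.169), and the value was -1.29 without DBZ replicate 1. It was also lost in a fit of these groups alone (adjusted p = 0.0568). Hes1 (log2 -0.22, adjusted p = 0.742; 0.60 without DBZ replicate 1 and -0.76 without DBZ replicate 2), Hes5 (-1.04, adjusted p = 0.366), Heyl (1.59, adjusted p = 0.264) and Hey1 (0.17) were not called.

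Dtx1 stood at 9.55 and 4.46 CPM in Rbpj-deleted crypts and at 0.946 and 1.22 CPM in DBZ crypts (log2 2.69, SE 0.83, adjusted p = 0.0241), with no overlap. That call was lost without DBZ replicate 1 (log2 2.44, adjusted p = 0.129), DBZ replicate 2 (log2 2.88, adjusted p = 0.104) or Rbpj replicate 1 (log2 2.02, adjusted p = 0.148). The same sum of 7 leukocyte markers described with Dtx1 further on was 119 and 106 CPM in Rbpj-deleted crypts and 52.1 and 78.0 CPM in DBZ crypts, and its part in the result was not tested. Nrarp (85.0 and 63.6 CPM in Rbpj-deleted crypts, 77.5 and 10.5 CPM in DBZ crypts) was not called (log2 0.75, SE 0.48, adjusted p = 0.282). Its value was 2.75 and called without DBZ replicate 1 (adjusted p = 1.97e-05) and -0.06 without DBZ replicate 2. Of the secretory list, 0 of 9 genes were higher and 3 lower, among them Atoh1 (log2 -1.54, SE 0.32, adjusted p = 0.00181). Without DBZ replicate 1, 4 of the 9 were lower (Atoh1 -2.02), and without DBZ replicate 2, 0 were called (Atoh1 -0.93, adjusted p = 0.0659).

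**Figure D2:**
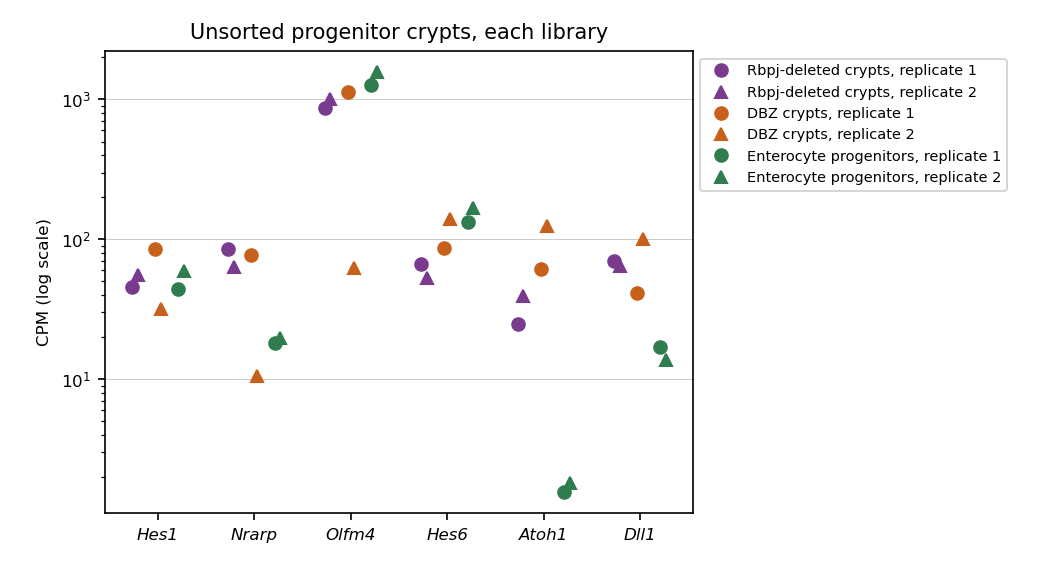
Levels of Hes1, Nrarp, the stem cell marker Olfm4, Hes6, Atoh1 and the Notch ligand gene Dll1 (y axes, TMM-scaled CPM, log scale) in the 6 unsorted crypt libraries, with circles for replicate 1 and triangles for replicate 2. DBZ replicate 1 stands at 77.5 CPM of Nrarp and 1135 CPM of Olfm4, and DBZ replicate 2 at 10.5 and 62.8 CPM.

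Progenitor crypts, unsorted, were also set against sorted Lgr5-GFP-Cre stem cells, so that sorting and cell state cannot be told apart. Enterocyte progenitor crypts had less Hes1, Hes5 and Nrarp and more Dtx1, which are 4 of 7 members beside 39.4% of all genes (22.2% higher, 17.2% lower). Hes1 averaged 51.9 ± 10.9 CPM in enterocyte progenitor crypts (n = 2) and 223 ± 20.5 CPM in Lgr5-GFP-Cre stem cells (SD, n = 3), a log2 difference of -2.10 (SE 0.39, adjusted p = 0.000464). Nrarp differed by -2.23 (SE 0.48, adjusted p = 0.00149), and neither gene's libraries overlapped. Hes6 was not called (log2 -0.56, SE 0.28, adjusted p = 0.119), and was called in a fit of these groups alone (log2 -0.65, adjusted p = 0.0409). Hes5 (log2 -2.48, SE 0.78, adjusted p = 0.0182) lost its call without Cre replicate 1 (-2.10, adjusted p = 0.0567), enterocyte progenitor replicate 1 (-2.52, adjusted p = 0.117) or enterocyte progenitor replicate 2 (-2.46, adjusted p = 0.106). Dtx1 (log2 2.91, SE 0.77, adjusted p = 0.00648) lost its call without enterocyte progenitor replicate 1 (2.58, adjusted p = 0.0534) and stood at 3.70 without Cre replicate 1.

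DBZ crypts had less Hes1 and Hes6 than Lgr5-GFP-Cre stem cells, 2 of 7 members beside 36.7% of all genes (21% higher, 15.7% lower). Hes1 averaged 58.5 ± 37.6 CPM in DBZ crypts (n = 2) and 223 ± 20.5 CPM in Lgr5-GFP-Cre stem cells (SD, n = 3; log2 -1.93, SE 0.39, adjusted p = 0.000892), and the value was -2.77 without DBZ replicate 1 and -1.38 without DBZ replicate 2 (adjusted p = 0.0252). Hes6 (log2 -0.97, SE 0.28, adjusted p = 0.0129) lost its call without DBZ replicate 1 (-0.63, adjusted p = 0.169) and stood at -1.34 without DBZ replicate 2. Nrarp was not called (log2 -1.01, SE 0.45, adjusted p = 0.0877). It was called without DBZ replicate 1 (-3.05, adjusted p = 5.20e-06), stood at -0.19 without DBZ replicate 2 (adjusted p = 0.607), and was called by DESeq2 (-1.07, adjusted p = 0.0413). Both DBZ libraries lay below the lowest Lgr5-GFP-Cre library for Hes1, Hes6 and Nrarp.

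All 7 genes were called between Bmi1-GFP cells and Lgr5-GFP-Cre stem cells, 4 lower and 3 higher. Of all genes tested, 50.4% were called (27.9% higher, 22.5% lower). The Hes genes and Nrarp were lower in Bmi1-GFP cells, while Hey1, Heyl and Dtx1 were higher. Hes1 averaged 64.4 ± 10.6 CPM in Bmi1-GFP cells and 223 ± 20.5 CPM in Lgr5-GFP-Cre stem cells (SD, n = 3 each; log2 -1.79, SE 0.33, adjusted p = 0.000297). Nrarp averaged 34.2 ± 5.37 CPM in Bmi1-GFP cells and 89.0 ± 6.33 CPM in Lgr5-GFP-Cre stem cells (SD, n = 3 each; log2 -1.38, SE 0.40, adjusted p = 0.00850). Hes6 differed by -1.67 (SE 0.25, adjusted p = 4.94e-05). For each of these genes the highest Bmi1-GFP library lay below the lowest Lgr5-GFP-Cre library.

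Among the low genes of that comparison, Hes5 measured 0.235, 0.155 and 0.131 CPM in Bmi1-GFP cells and 1.65, 1.03 and 0.699 CPM in Lgr5-GFP-Cre stem cells (log2 -2.66, SE 0.70, adjusted p = 0.00482). Heyl measured 7.41, 6.06 and 1.66 CPM in Bmi1-GFP cells and 0.0689, 0.901 and 0.524 CPM in Lgr5-GFP-Cre stem cells (log2 3.31, SE 0.85, adjusted p = 0.00415, and 3.96 without Cre replicate 2). Neither gene's libraries overlapped. Hey1 measured 0.705, 0.622 and 0.699 CPM in Bmi1-GFP cells and 0, 0.129 and 0.0873 CPM in Lgr5-GFP-Cre stem cells (log2 3.08, SE 1.16, adjusted p = 0.0347). The Hey1 call was lost without Cre replicate 1 (2.61, adjusted p = 0.104), Cre replicate 3 (adjusted p = 0.0817, with 2 counts left in Lgr5-GFP-Cre stem cells), Bmi1-GFP replicate 1 (3.07, adjusted p = 0.0588), Bmi1-GFP replicate 2 (3.16, adjusted p = 0.0512) or Bmi1-GFP replicate 3 (3.05, adjusted p = 0.0577).

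Dtx1, the Deltex ubiquitin ligase gene, measured 18.9, 16.0 and 9.57 CPM in Bmi1-GFP cells and 1.17, 0.45 and 0.262 CPM in Lgr5-GFP-Cre stem cells. The log2 difference was 4.6 (SE 0.76, adjusted p = 0.000123), and 5.39 without Cre replicate 1. Every Bmi1-GFP library lay above every library of any other group except CD274+CD69+ DT replicate 2. A sum of 7 leukocyte markers (Ptprc, Cd3e, Cd8a, Cd79a, Itgam, Lyz2 and Csf1r) was 309.7, 184 and 157 CPM in Bmi1-GFP cells and 10.3, 12.7 and 13.8 CPM in Lgr5-GFP-Cre stem cells. The T cell genes Cd3e and Cd8a lay between 45.1 and 96.0 CPM and between 36.9 and 82.6 CPM for Bmi1-GFP cells, against 2.41 to 3.14 CPM and 1.61 to 1.75 CPM in Lgr5-GFP-Cre stem cells. None of the 7 markers was at 0 in any Bmi1-GFP library, and 1 to 2 of 7 were at 0 in each Lgr5-GFP-Cre library. Bmi1-GFP libraries fell in the same order for the leukocyte sum and for Dtx1. Sums of enteroendocrine, tuft, endothelial, and mural and stromal markers had that order too. Sums of stem cell, enterocyte, goblet, Paneth, and neural and glial markers did not. An order of 3 libraries cannot tell these cell types apart. The part of leukocyte RNA in the Dtx1 result was not tested.

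Other cell type markers moved too. 7 enteroendocrine markers summed to 6878 to 12734 CPM in Bmi1-GFP cells and to 252 to 276 CPM in Lgr5-GFP-Cre stem cells, 5 tuft cell markers to 141 to 338 CPM in Bmi1-GFP cells and 10.1 to 14.9 CPM in Lgr5-GFP-Cre stem cells, and 6 stem cell markers to 828 to 1384 CPM in Bmi1-GFP cells and 5271 to 7064 CPM in Lgr5-GFP-Cre stem cells. None of these markers was at 0 in any of those libraries. Vessel and stromal markers differed at low levels. 8 endothelial markers summed to 2.88 to 6.35 CPM in Bmi1-GFP cells and to 0.0689 to 1.22 CPM in Lgr5-GFP-Cre stem cells, and 10 mural and stromal markers summed to 1.0 to 2.47 CPM in Bmi1-GFP cells and 0.786 to 1.74 CPM in Lgr5-GFP-Cre stem cells. Hey1 and Heyl are known in vessels as well, and the part of any of these cells in the values of the 7 genes was not tested.

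Enteroendocrine cells, set against Lgr5-GFP-Cre stem cells, had less Hes1, Hes5 and Nrarp and more Dtx1, while Hes6 was not called. These calls are 4 of 7 members beside 45.9% of all genes (25.5% higher, 20.4% lower). Hes1 averaged 72.8 ± 20.9 CPM in enteroendocrine cells (n = 2) and 223 ± 20.5 CPM in Lgr5-GFP-Cre stem cells (SD, n = 3; log2 -1.61, SE 0.38, adjusted p = 0.00230). The Hes6 difference was -0.15 (adjusted p = 0.696), and its sign turned without enteroendocrine replicate 2 (0.06). Its enteroendocrine libraries, at 232 and 169 CPM, overlapped the Lgr5-GFP-Cre range of 201 to 255 CPM. Enteroendocrine replicate 1 had the higher Hes6 and the higher sum of enteroendocrine markers, 27469 CPM against 13190 CPM in replicate 2. The tuft sum was lower in replicate 1, 529 against 2611 CPM. The part of cell makeup in the Hes6 value was not tested.

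Nrarp was lower in enteroendocrine cells (log2 -1.7, SE 0.47, adjusted p = 0.00679) and lost its call without enteroendocrine replicate 1 (-1.68, adjusted p = 0.0532). Dtx1 stood at 3.40 and 1.5 CPM in enteroendocrine cells (log2 1.99, SE 0.78, adjusted p = 0.0457). Its call was lost without Cre replicate 2 (1.83, adjusted p = 0.114), Cre replicate 3 (1.52, adjusted p = 0.164) or enteroendocrine replicate 1 (1.31, adjusted p = 0.312), with the replicate number as a block (1.7, adjusted p = 0.0957) and in a fit of these groups alone (adjusted p = 0.0747), and it was 2.78 without Cre replicate 1. The leukocyte sum was 353 and 255 CPM in enteroendocrine cells, with Cd8a at 0 in both, against 10.3 to 13.8 CPM in Lgr5-GFP-Cre stem cells. Hes5 rested on 4 counts in enteroendocrine cells (log2 -3.59, SE 0.88, adjusted p = 0.00324, and -2.81 without enteroendocrine replicate 1, adjusted p = 0.0396).

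Paneth cells had less of all 3 Hes genes and of Nrarp than Lgr5-GFP-Cre stem cells. These are 4 of 7 members beside 40.7% of all genes (21.6% higher, 19.1% lower). Hes1 averaged 69.3 ± 35.5 CPM in Paneth cells (n = 2) and 223 ± 20.5 CPM in Lgr5-GFP-Cre stem cells (SD, n = 3; log2 -1.69, SE 0.38, adjusted p = 0.00197, and -2.33 without Paneth replicate 1). Hes6 differed by -1.46 (SE 0.29, adjusted p = 0.000727). Nrarp (log2 -1.74, SE 0.47, adjusted p = 0.00698) lost its call without Paneth replicate 1 (-1.55, adjusted p = 0.0683). Hes5 (log2 -2.31, SE 0.83, adjusted p = 0.0343) lost its call without Cre replicate 1 (-1.93, adjusted p = 0.0988), Paneth replicate 1 (-1.82, adjusted p = 0.189) or Paneth replicate 2 (adjusted p = 0.0670, with 1 count left in Paneth cells), and in a fit of these groups alone (adjusted p = 0.0883) or with no filter (adjusted p = 0.0570). Heyl stood at 1.33 and 2.56 CPM in Paneth cells and was not called (log2 1.96, adjusted p = 0.0945). Paneth libraries lay below all Lgr5-GFP-Cre libraries for each of the 4 called genes.

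CD274+CD69+ control cells, set against Lgr5-GFP-Cre stem cells, had less Hes1, Hes5, Hes6 and Nrarp and more Dtx1. These are 5 of 7 members beside 45.3% of all genes (24% higher, 21.3% lower). Hes1 averaged 71.7 ± 2.17 CPM in CD274+CD69+ control cells (n = 2) and 223 ± 20.5 CPM in Lgr5-GFP-Cre stem cells (SD, n = 3; log2 -1.64, SE 0.38, adjusted p = 0.00198). Hes6 differed by -1.54 (SE 0.29, adjusted p = 0.000352). Hes5 had 3 counts in all in CD274+CD69+ control cells, at 0.0514 and 0.0917 CPM, against 0.699 to 1.65 CPM in Lgr5-GFP-Cre stem cells (adjusted p = 0.00245). No library of the control cells reached the lowest Lgr5-GFP-Cre library for any of these genes.

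Nrarp (log2 -1.29, SE 0.46, adjusted p = 0.0293) lost its call in that comparison without Cre replicate 1 (-1.24, adjusted p = 0.0615), control replicate 1 (-1.36, adjusted p = 0.107) or control replicate 2 (-1.21, adjusted p = 0.161). Dtx1 (1.80 and 5.50 CPM in CD274+CD69+ control cells, 0.262 to 1.17 CPM in Lgr5-GFP-Cre stem cells) differed by 2.59 (SE 0.77, adjusted p = 0.0114). It lost its call without control replicate 2 (1.57, adjusted p = 0.227) and was 3.38 without Cre replicate 1 and 3.18 without control replicate 1. Hey1 stood at 0.36 and 0.688 CPM in control cells (log2 2.72, adjusted p = 0.0831) and was not called. Control replicate 2, the SMART-Seq v4 library, had the higher leukocyte sum as well, 64.8 CPM beside 41.0 CPM in replicate 1.

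Diphtheria toxin was followed by no called change of the 7 genes in CD274+CD69+ cells. edgeR called 0 of 7 members, 1 had an unadjusted p below 0.05 (Hes5), and DESeq2 called 1 (Hes5). Of all genes, 0.175% were called (0.0741% higher, 0.101% lower). Hes1 averaged 73.8 ± 2.34 CPM in toxin-treated cells and 71.7 ± 2.17 CPM in control cells (SD, n = 2 each; log2 0.04, SE 0.40, adjusted p = 1). Nrarp averaged 60.2 ± 7.34 CPM in toxin-treated cells and 36.5 ± 2.83 CPM in control cells (SD, n = 2 each; log2 0.72, SE 0.49, adjusted p = 0.976), without overlap, and it was called in a fit of these groups alone (0.71, adjusted p = 0.0408). Hes5 had 53 counts in toxin-treated cells (1.15 and 1.21 CPM) and 3 counts in control cells (0.0514 and 0.0917 CPM), with an adjusted p of 0.144. Dtx1 stood at 5.08 and 12.6 CPM in toxin-treated cells and at 1.80 and 5.50 CPM in control cells (log2 1.27, SE 0.78, adjusted p = 0.937), with overlap. Within each of these groups Dtx1 and the leukocyte sum (53.9 and 104 CPM in toxin-treated cells, 41.0 and 64.8 CPM in control cells) were both higher in replicate 2.

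The goblet sort late after DBZ had less Hes1, Hes6 and Nrarp than CD274+CD69+ control cells. These are 3 of 7 members beside 51.2% of all genes. The split over all genes was 21.8% higher and 29.5% lower, or 42.5% of called genes higher, and with DESeq2's size factors, which moved the median gene to 0.15, against -0.10 with TMM, 54.1% of called genes were higher. Hes1 averaged 15 ± 2.78 CPM in the goblet sort and 71.7 ± 2.17 CPM in control cells (SD, n = 2 each; log2 -2.26, SE 0.42, adjusted p = 0.000213). Nrarp averaged 4.08 ± 0.143 CPM in the goblet sort and 36.5 ± 2.83 CPM in control cells (SD, n = 2 each; log2 -3.16, SE 0.55, adjusted p = 0.000113). Both differences are further from 0 than the median gene under either scaling, and neither gene's libraries overlapped.

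Hes6 differed by -1.04 (SE 0.31, adjusted p = 0.00871) in the same comparison. Its call was lost with DESeq2's size factors (-0.77, adjusted p = 0.0527) and without control replicate 1 (-0.96, adjusted p = 0.0530) or goblet replicate 1 (-1.0, adjusted p = 0.0568). Heyl (log2 -0.22) and Dtx1 (log2 -0.10, adjusted p = 0.929) were not called, and with DESeq2's size factors their values were 0.05 and 0.17. Hes5 had 0 counts in the goblet sort, which allows up to 0.114 CPM at 3 counts over both libraries, and 3 counts in control cells. The sort differed from control cells in cell type as well, with enterocyte sums of 92158 to 97375 CPM against 11024 to 11129 CPM and stem cell sums of 39.0 and 62.5 CPM.

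Against DBZ crypts, harvested earlier after the same doses and not sorted, the goblet sort had less of all 3 Hes genes and of Nrarp. These are 4 of 7 members beside 55% of all genes (24.9% higher, 30.1% lower, or 45.2% of called genes higher and 54.9% with DESeq2's size factors, which moved the median gene to 0.19, against -0.07). Hes6 differed by -1.62 (SE 0.31, adjusted p = 0.000231), with both goblet libraries below both DBZ libraries (-1.71 without DBZ replicate 1 and -1.24 without DBZ replicate 2). Hes5 was at 0 in both goblet libraries, at least 6.54-fold lower than in DBZ crypts, counting 3 counts over the group (adjusted p = 0.00102). Nrarp differed by -3.43 (SE 0.56, adjusted p = 3.82e-05), by -1.16 without DBZ replicate 1 (adjusted p = 0.00206) and by -4.25 without DBZ replicate 2. Hes1 differed by -1.97 (SE 0.42, adjusted p = 0.000571) and lost its call without DBZ replicate 1 (-0.89, adjusted p = 0.0789), with -2.51 without DBZ replicate 2. Time after DBZ and sorting cannot be told apart.

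Between the Lgr5-GFP lines, Hes5 was called higher in Lgr5-GFP-DTR stem cells. It is 1 of 7 members beside 20.5% of all genes (9.49% higher, 11.1% lower). Hes5 stood at 8.31 and 2.65 CPM in Lgr5-GFP-DTR stem cells and at 1.65, 1.03 and 0.699 CPM in Lgr5-GFP-Cre stem cells (log2 2.29, SE 0.66, adjusted p = 0.0220), with no overlap. The call was lost without Cre replicate 2 (2.23, adjusted p = 0.0699), Cre replicate 3 (2.00, adjusted p = 0.0826) or DTR replicate 1 (1.24, adjusted p = 0.290), with the replicate number as a block (2.06, adjusted p = 0.0654) and in a fit of these lines alone (adjusted p = 0.106), and it was 2.89 without DTR replicate 2. Hes1 averaged 120 ± 60.9 CPM in Lgr5-GFP-DTR stem cells (n = 2) and 223 ± 20.5 CPM in Lgr5-GFP-Cre stem cells (SD, n = 3; log2 -0.89, SE 0.37, adjusted p = 0.0943), and was called without DTR replicate 1 (-1.53, adjusted p = 0.0252). Nrarp (log2 -0.45, SE 0.45, adjusted p = 0.502) and Hes6 (log2 -0.27) were not called.

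Heyl and Dtx1 had 0 counts in both Lgr5-GFP-DTR libraries. With 3 counts over the group as the floor, Heyl was at least 3.16-fold lower (adjusted p = 0.0689) and Dtx1 at least 3.99-fold lower (adjusted p = 0.0636) than in Lgr5-GFP-Cre stem cells, and neither was called. Hey1 stood at 1.56 and 0 CPM in Lgr5-GFP-DTR stem cells, so that 1 library held all of its counts, and it was called without DTR replicate 2 (log2 4.27, adjusted p = 0.0244). The stem cell and Paneth gene sums given above differed between the lines. The tuft sum was 682 and 996 CPM in Lgr5-GFP-DTR stem cells and 10.1 to 14.9 CPM in Lgr5-GFP-Cre stem cells. The leukocyte sum was 49.4 and 40.4 CPM in Lgr5-GFP-DTR stem cells and 10.3 to 13.8 CPM in Lgr5-GFP-Cre stem cells. The part of these differences in the Hes5 value was not tested.

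**Figure D3:**
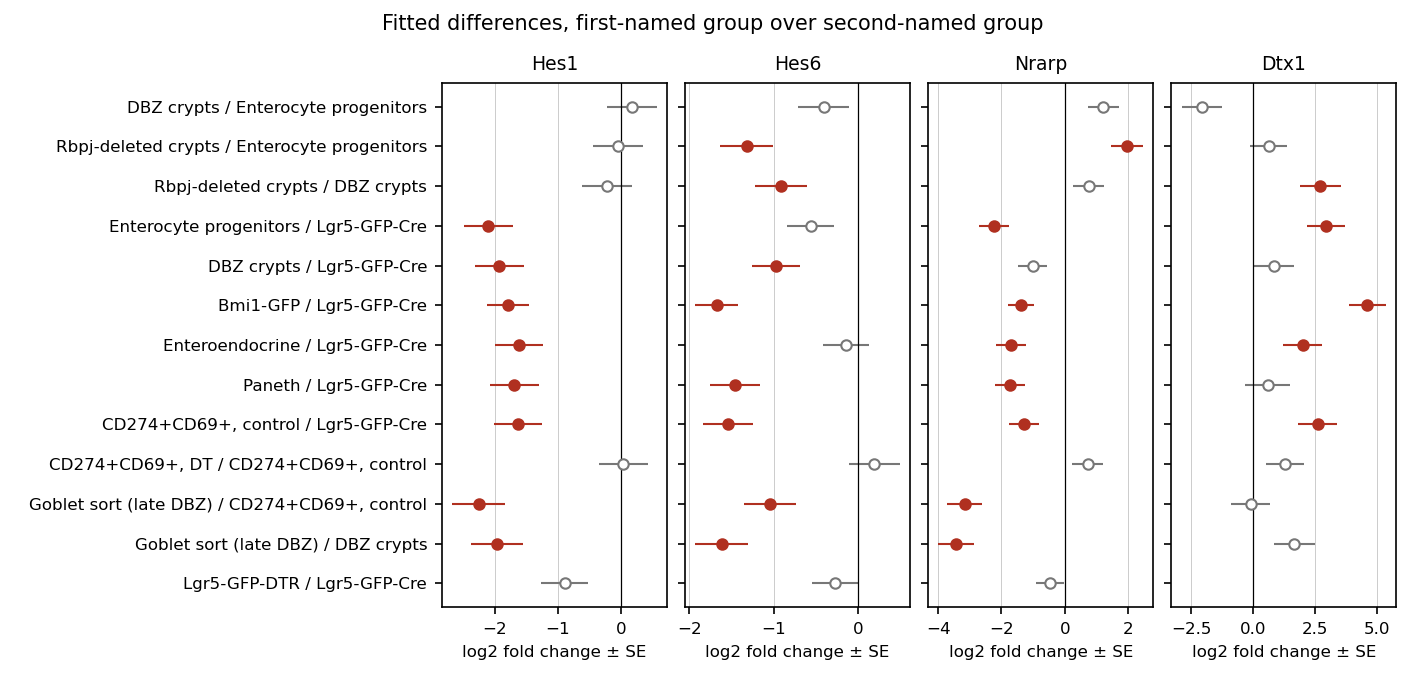
Log2 fold changes with standard errors (x axes, which differ between panels) of Hes1, Hes6, Nrarp and Dtx1 in 13 comparisons, first-named group over second-named, filled red where called and open grey where not. Hes1 was called lower in 8 comparisons and higher in 0, Hes6 lower in 8 and higher in 0, and Dtx1 higher in 5 and lower in 0. The Dtx1 value between the Lgr5-GFP lines is not drawn because both Lgr5-GFP-DTR libraries are at 0.

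Over the 13 comparisons Hes1 was called lower 8 times and Hes6 8 times, neither of them higher. Nrarp was called lower 7 times and higher 1 time, Hes5 lower 6 times and higher 1 time, Dtx1 higher 5 times, and Hey1 and Heyl higher 1 time each. 7 of these comparisons share the Lgr5-GFP-Cre libraries on one side, so their values are not separate results. The 2 comparisons of DBZ crypts and Rbpj-deleted crypts with enterocyte progenitor crypts likewise share libraries. Libraries of DBZ crypts, Rbpj-deleted crypts, enterocyte progenitor crypts, the goblet sort and CD274+CD69+ control cells each enter more than 1 comparison. Higher and lower refer to the first-named group of each comparison.

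After irradiation the single Bmi1-GFP library held less of the 3 abundant genes and of Dtx1 than the untreated libraries, with no replicate and hence no test. Hes1 stood at 20.0 CPM in the irradiated library, against 52.7 to 73.5 CPM in untreated Bmi1-GFP cells, and Nrarp at 12.8 CPM against 28.5 to 39.1 CPM. Hes6 stood at 43.6 CPM in the irradiated library, against 51.7 to 80.1 CPM, and Dtx1 at 4.39 CPM against 9.57 to 18.9 CPM. Each lay below the lowest untreated library. On the scale of log2(CPM + 1) the differences from the mean of the untreated libraries were -1.63 for Hes1, -1.34 for Nrarp, -0.64 for Hes6 and -1.5 for Dtx1, and 21% of all genes lay at least 2-fold lower and 13% at least 2-fold higher.

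The irradiated library held 359 counts of Hes1, 784 of Hes6, 230 of Nrarp and 79 of Dtx1. On unscaled totals that is 14.2 CPM of Hes1 (95% Clopper-Pearson interval 12.8 to 15.8), 31 CPM of Hes6 (28.9 to 33.3) and 9.10 CPM of Nrarp (7.96 to 10.4), and these intervals cover counting error only. Heyl had 12 counts (0.667 CPM, against 1.66 to 7.41 CPM in untreated cells), Hes5 4 and Hey1 1. The library also differed in makeup, with a leukocyte sum of 42.7 CPM against 157 to 309.7 CPM in untreated cells, an enterocyte sum of 91115 CPM against 5185 to 13380 CPM, a stem cell sum of 60.2 CPM against 828 to 1384 CPM and an enteroendocrine sum of 1651 CPM against 6878 to 12734 CPM. The part of these differences in the values of the 7 genes was not tested.

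The low genes had their own orders. Hes5 was highest in Lgr5-GFP-DTR stem cells (8.31 and 2.65 CPM), followed by CD274+CD69+ DT cells (1.15 and 1.21 CPM), Lgr5-GFP-Cre stem cells (0.699 to 1.65 CPM) and DBZ crypts (0.845 and 0.65 CPM). All other libraries held at most 0.397 CPM, and 3 libraries were at 0. Neighbours in this order overlapped in 7 of 11 cases.

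Heyl was highest in Bmi1-GFP cells (7.41, 6.06 and 1.66 CPM), followed by Paneth cells (1.33 and 2.56 CPM), Rbpj-deleted crypts (2.11 and 1.32 CPM) and CD274+CD69+ DT cells (0.941 and 2.28 CPM). Enterocyte progenitor crypts had 0.762 and 0.953 CPM, CD274+CD69+ control cells 0.205 and 1.38 CPM, the goblet sort 0.631 and 0.736 CPM, DBZ crypts 0.608 and 0.528 CPM, and enteroendocrine cells 0 and 0.269 CPM. Its neighbours overlapped in 10 of 11 cases, so most of that order is within the spread of the libraries. Hey1 never exceeded 16 counts in a library, its neighbours overlapped in 10 of 11 cases, and 5 libraries were at 0. Its highest library was Lgr5-GFP-DTR replicate 1 at 1.56 CPM, and Bmi1-GFP libraries lay at 0.622 to 0.705 CPM.

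Dtx1 was highest in Bmi1-GFP cells, then CD274+CD69+ DT cells (5.08 and 12.6 CPM), Rbpj-deleted crypts (9.55 and 4.46 CPM) and enterocyte progenitor crypts (5.53 and 3.65 CPM). The goblet sort had 2.68 and 4.12 CPM of Dtx1, enteroendocrine cells 3.40 and 1.5 CPM, and Paneth cells 1.84 and 0.125 CPM. Leukocyte sums were 161 and 137 CPM in enterocyte progenitor crypts, 77.8 and 134 CPM in the goblet sort, 114 and 73.4 CPM in Paneth cells and 49.4 and 40.4 CPM in Lgr5-GFP-DTR stem cells, where Dtx1 was at 0. Enteroendocrine cells, with Cd8a at 0 in both libraries, combined the highest leukocyte sum with 3.40 and 1.5 CPM of Dtx1. The sum mixes markers of several leukocyte types, so its order over groups cannot speak to a single type. Its part in the Dtx1 levels was not tested.

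**Figure D4:**
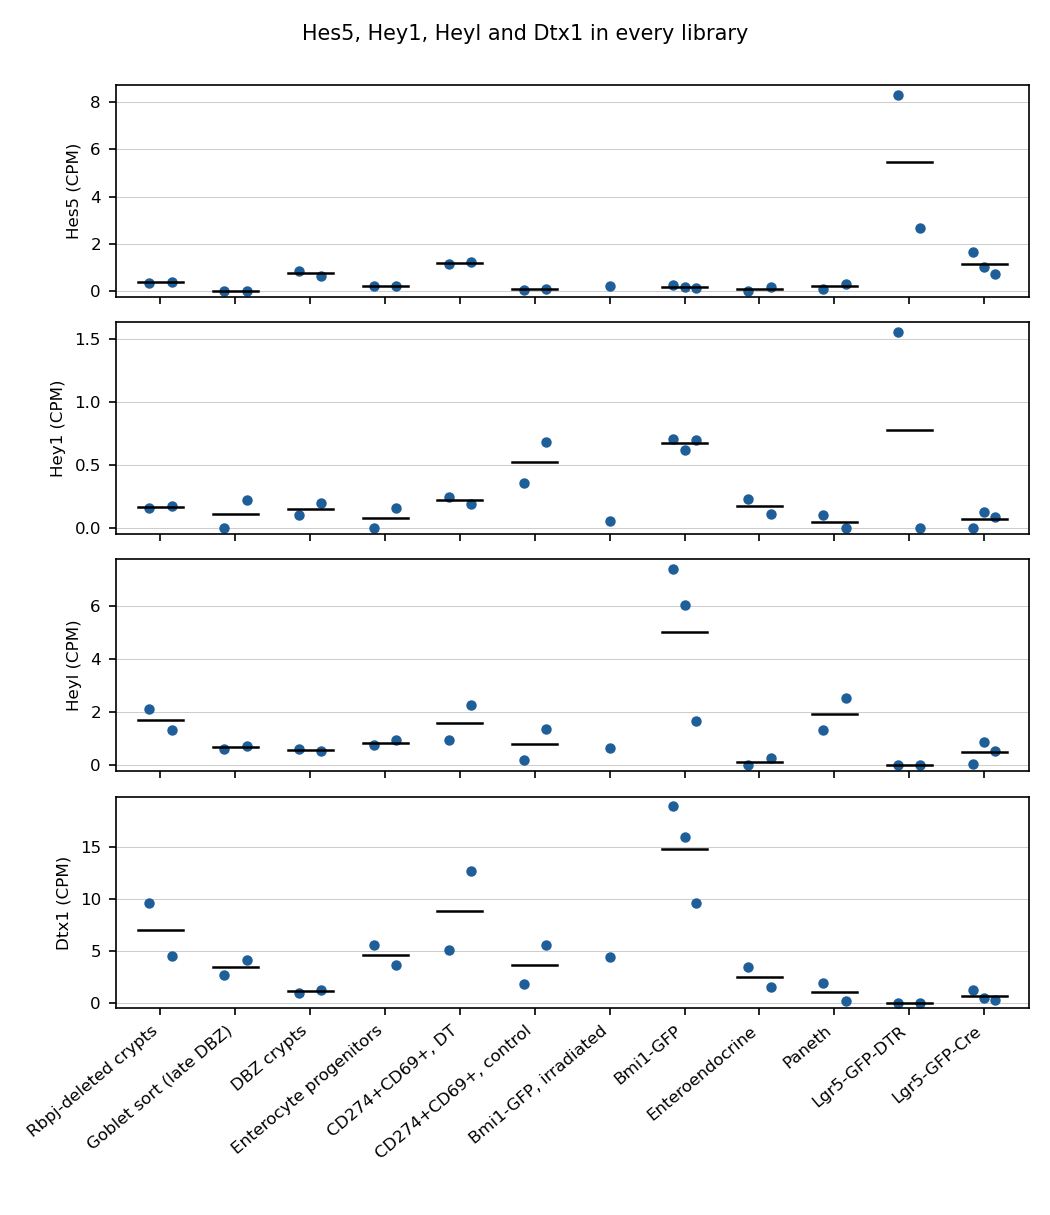
Levels of Hes5, Hey1, Heyl and Dtx1 (y axes, TMM-scaled CPM) in each of 12 groups (x axis), where points are libraries and bars are means of groups with more than 1 library. Dtx1 and Heyl are highest in Bmi1-GFP cells, at 9.57 to 18.9 CPM and 1.66 to 7.41 CPM, and Hes5 in Lgr5-GFP-DTR stem cells, at 8.31 and 2.65 CPM.

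The rest of the Notch pathway was described with a list of 49 genes (receptors, ligands, the nuclear complex, glycosyltransferases, proteases, turnover factors, corepressors and other Hes and Hey genes), of which 46 were tested. In DBZ crypts against enterocyte progenitor crypts, 3 were higher and 2 lower (3 and 1 without DBZ replicate 1, 2 and 1 without DBZ replicate 2), beside 1.89% higher and 0.573% lower of all genes. The ligand gene Dll1 was higher (log2 2.20, SE 0.32, adjusted p = 0.000293; 2.76 without DBZ replicate 1 and 1.44 without DBZ replicate 2), and Dll3, another gene of the Delta family, had 104 counts in DBZ crypts and 0 in enterocyte progenitor crypts, at least 37.7-fold higher (adjusted p = 0.000337), and it was also called with either DBZ library left out. The receptor gene Notch1 was lower (log2 -1.25, SE 0.31, adjusted p = 0.0376; -1.69 without DBZ replicate 1 and -0.88, adjusted p = 0.495, without DBZ replicate 2), and Dner, which encodes a Delta and Notch-like transmembrane protein, had 65 counts in DBZ crypts and 2 in enterocyte progenitor crypts (adjusted p = 0.0298, and 0.319 without DBZ replicate 2). In a fit of these groups alone 0 were higher and 0 lower, although DESeq2 called 4 higher and 2 lower.

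In Rbpj-deleted crypts against enterocyte progenitor crypts, 14 of 46 were higher and 1 lower, beside 15.1% and 13% of all genes. Dll1 (log2 2.14, SE 0.32, adjusted p = 6.73e-05), the coactivator gene Maml1 (2.52, SE 0.38, adjusted p = 8.30e-05), Mib1, a ligase that activates Notch ligands (2.03, SE 0.33, adjusted p = 0.000178), and Pofut1, which fucosylates the receptor (1.32, SE 0.24, adjusted p = 0.000493), were higher. Against DBZ crypts, 11 were higher and 2 lower in Rbpj-deleted crypts (8 and 2 without DBZ replicate 1, 6 and 1 without DBZ replicate 2), beside 12.9% and 11.9% of all genes, led by Mib1 (1.93, SE 0.33), Pofut1 (1.38, SE 0.24), Maml1 (2.14, SE 0.37) and the receptor gene Notch1 (1.58, SE 0.31, adjusted p = 0.00126), each also called with either DBZ library left out. Dll1 was higher than in enterocyte progenitor crypts under both interventions, in comparisons that share the enterocyte progenitor libraries. Those crypts, where Atoh1 is deleted, themselves had less Dll1 than Lgr5-GFP-Cre stem cells (log2 -1.90, SE 0.30). The part of this low reference in both differences was not tested. Mib1, Pofut1 and Maml1 also differed between the interventions, beside the difference in kit given above.

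Against Lgr5-GFP-Cre stem cells, 9 of 46 were higher and 10 lower in enterocyte progenitor crypts, beside 22.2% and 17.2% of all genes. In DBZ crypts 6 were higher and 6 lower, beside 21% and 15.7% of all genes, and 3 were lower without DBZ replicate 1 and 2 without DBZ replicate 2. Itch, a ubiquitin ligase of Notch, and the corepressor Tle4 were higher in enterocyte progenitor crypts (log2 1.71, SE 0.19 and log2 1.40, SE 0.18) and in DBZ crypts (log2 1.79, SE 0.19 and log2 1.42, SE 0.18). In enterocyte progenitor crypts Dll1 was lower (-1.90, SE 0.30, adjusted p = 0.000106), and Dll3 had 0 counts against 256 in stem cells, at least 96.4-fold lower (adjusted p = 9.27e-06). In DBZ crypts the ligand gene Jag1 (1.57, SE 0.24, adjusted p = 8.09e-05) and the protease gene Adam10 (1.76, SE 0.33, adjusted p = 0.000521) were higher. Itch, Tle4, Jag1 and Adam10 were also called with either DBZ library left out.

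Bmi1-GFP, enteroendocrine and Paneth cells each had more genes of the list higher than lower against Lgr5-GFP-Cre stem cells. Bmi1-GFP cells had 16 of 46 higher and 4 lower, with Itch at log2 1.35 (SE 0.18), Dner at 5.18 (SE 0.74), Tle4 at 1.11 (SE 0.17) and the corepressor Tle2 at 3.33 (SE 0.51). Enteroendocrine cells had 18 higher and 6 lower, with the ligase gene Neurl1a at 5.93 (SE 0.87), Itch at 1.2 (SE 0.19), Dner at 4.38 (SE 0.75) and Tle3 at 1.66 (SE 0.32). Paneth cells had 14 higher and 4 lower, with Itch at 2.35 (SE 0.20), Tle4 at 1.19 (SE 0.18), Mib1 at 1.68 (SE 0.30) and Jag1 at 1.36 (SE 0.24). Of all genes, 27.9% were higher and 22.5% lower in Bmi1-GFP cells, 25.5% and 20.4% in enteroendocrine cells and 21.6% and 19.1% in Paneth cells.

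CD274+CD69+ control cells had 15 of 46 higher and 4 lower than Lgr5-GFP-Cre stem cells, with Itch at log2 2.52 (SE 0.20), Tle4 at 2.01 (SE 0.18), Jag1 at 2.04 (SE 0.24) and Lfng, a glycosyltransferase of the receptor, at -1.99 (SE 0.31), beside 24% and 21.3% of all genes. After diphtheria toxin edgeR called 0 of 46, with 2 at an unadjusted p below 0.05, and DESeq2 also called 0, while a fit of these groups alone called 1 higher. The goblet sort had 12 higher and 9 lower than control cells, beside 21.8% and 29.5% of all genes, with Dtx4, another Deltex gene, at -3.30 (SE 0.27), the glycosyltransferase Rfng at -1.71 (SE 0.18), Tle4 at -1.56 (SE 0.20) and Tle3 at 2.81 (SE 0.38). Against DBZ crypts it had 12 higher and 7 lower (11 and 7 with either DBZ library left out), beside 24.9% and 30.1% of all genes, with Dtx4 at -2.52 (SE 0.27), Tle3 at 3.62 (SE 0.39), Itch at 1.47 (SE 0.22) and Rfng at -1.18 (SE 0.18), each also called with either DBZ library left out. Lgr5-GFP-DTR stem cells had 4 higher and 7 lower than Lgr5-GFP-Cre stem cells, beside 9.49% and 11.1% of all genes, with Dtx4 at -1.29 (SE 0.23), Neurl1a at 4.38 (SE 0.87), Aph1a, a subunit of gamma-secretase, at -0.81 (SE 0.17) and Dll1 at -1.27 (SE 0.29).

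Patterns over the 11 replicated groups were compared by Pearson's r of mean log2 CPM, as a description over 11 points that share libraries. Among the 7 genes, Hes1 was most like Nrarp (r = 0.85) and Hes6 (r = 0.77), Hes5 was like Nrarp (r = 0.69), Heyl was like Dtx1 (r = 0.72), and Hes6 and Heyl ran opposite (r = -0.64). The genes most like Hes1 were Isyna1 and Fdxr (r = 0.98 each), those most like Hes6 were Nsfl1c (r = 0.99) and Tomm34 (r = 0.97), and those most like Nrarp were Ccdc77 (r = 0.96) and Elp3 (r = 0.95). Cldn2 (r = 0.94) and Myl9 (r = 0.90) were most like Hes5, and Nsmaf (r = 0.93) and Slc12a4 (r = 0.91) most like Heyl. Dtx1 was most like Il21r and F2r (r = 0.96 each), Ccr9 (r = 0.95), Fasl and Gpr171 (r = 0.94 each), of which Il21r, Ccr9 and Fasl are known from lymphocytes.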

How the data were processed

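Per the labels, a NextSeq 500 gave single-end RNA reads of 75 bp. The authors deposited raw counts per gene, whole numbers with library totals of 11179085 to 27371108. Bowtie2, TopHat2 2.0.6, DESeq2 and the build mm10 are named in the submitters' processing notes. How reads were counted, on which annotation and strand, is not given in the sources used here, so overlapping and antisense genes cannot be told apart.

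From the deposited counts, genes were kept by filterByExpr (minimum count 10, minimum total 15), TMM factors scaled the libraries, and 1 quasi-likelihood model of edgeR 4.0.16 (R 4.3.3) was fitted over 24 libraries of 11 groups. Each of 13 comparisons was adjusted by Benjamini-Hochberg over 14837 genes, with a threshold of 0.05. The irradiated library entered no fit. Groups with 1 to 3 counts of a gene, counted after any library was left out, got no fold, and 0 counts were set to a floor of 3 over the group. The model was tested on simulated counts. Same-numbered libraries deviated with correlations of -0.21 to 0.13, and the labels do not pair them. Alternatives were another scaling, DESeq2 1.42.0, no filter, the compared groups alone, a replicate block and leaving out libraries.

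The members, lists and comparisons were chosen with earlier results of these data known. Named pathway genes are the 4 of lowest adjusted p in each comparison. Genes most like a member in pattern were sought for members with a highest group mean of at least 5 CPM, which left out Hey1. Of the 5 most like each, the first are named. Some genes of the lists are not reported here and were left out of counts and sums, a choice made after the values were seen. Promoter windows are those of RefSeq for GRCm38.p6.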

Additional observations from a re-analysis of the deposited data

How the results depend on the processing

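Of 82 differences with over 3 counts in each group, 36 were called. Their direction and call were kept in 78 with DESeq2's size factors, 77 with DESeq2, 81 without a filter and 79 with a replicate block. With only the compared groups 63 were kept, 1 changed sign, 4 lost and 3 gained a call. The rest of the 82 had no value there, because the filter on low counts was applied again to those groups. Over all values without 1 library, 300 were kept, 17 changed sign, 34 lost and 5 gained a call. Signs turned with DESeq2's size factors for Hes1 in Rbpj-deleted against enterocyte progenitor crypts (0.0292) and for Heyl (0.0467) and Dtx1 (0.17) in the goblet sort against control cells, and with DESeq2 for the same 3 (0.0296, 0.05 and 0.17). They also turned for Heyl in DBZ crypts against Lgr5-GFP-Cre stem cells with the replicate block (-0.0439) and for Dtx1 in the goblet sort against control cells with those groups alone (0.0074). Without a filter 56 genes were called after diphtheria toxin and 2 members between the Lgr5-GFP lines, where the replicate block called 0 members. The block also ended the call of Dtx1 in enteroendocrine cells against Lgr5-GFP-Cre stem cells and changed no other call among the 82. The numbers do not pair the libraries. With the numbers of the Rbpj libraries crossed, an alternative chosen after seeing the data, 7 of 7 members kept their calls. With only the compared groups, 1 member was called in Rbpj-deleted against DBZ crypts, 3848 genes in Paneth cells, 425 genes and 2 members after toxin, and 482 genes and 0 members between the Lgr5-GFP lines. DESeq2 called 657 genes in DBZ against enterocyte progenitor crypts, 127 genes and 1 member after toxin, and 3 members between the Lgr5-GFP lines. DESeq2 and the compared groups alone also called Dtx1 higher in the goblet sort than in DBZ crypts (1.94, adjusted p = 0.0365, and 1.7, adjusted p = 0.0192), against 1.65 and an adjusted p of 0.100. Causes were not tested. On unscaled totals, 64 of 77 group means moved by less than 1 SD and 6 of 7 genes kept their highest group, the exception being Hey1, whose highest group became Bmi1-GFP. Of the 30 genes most alike by Pearson's r, 5 for each of 6 members, 7 were among the first 5 by Spearman's rho.

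Leaving out 1 library gave these ranges of genes called: DBZ against enterocyte progenitor crypts 141 to 442, Rbpj-deleted against enterocyte progenitor crypts 2146 to 2937, Rbpj-deleted against DBZ crypts 1897 to 2943, enterocyte progenitor crypts against Lgr5-GFP-Cre 2845 to 5841, DBZ crypts against Lgr5-GFP-Cre 3208 to 5304, CD274+CD69+ control cells against Lgr5-GFP-Cre 4210 to 6660, toxin 9 to 16, and Lgr5-GFP-DTR against Lgr5-GFP-Cre 1934 to 3507. Members called ranged from 0 to 1, 1 to 2, 0 to 2 and 2 to 4 in the first 4 of these, 2 to 4 in enteroendocrine and in Paneth cells, 3 to 5 in control cells and 0 to 2 between the Lgr5-GFP lines. Among single genes whose sign turned, DBZ against enterocyte progenitor crypts gave -0.65 to 0.71 for Hes1, -0.0416 to 1.26 for Hey1 and -0.79 to 2.04 for Nrarp. Rbpj-deleted against enterocyte progenitor crypts gave -0.25 to 0.19 for Hes1 and -0.0221 to 1.02 for Dtx1. Rbpj-deleted against DBZ crypts gave -0.76 to 0.60 for Hes1, -0.32 to 0.20 for Hey1 and -0.0645 to 2.75 for Nrarp. Against Lgr5-GFP-Cre, Hey1 gave -0.30 to 1.01 in enterocyte progenitor crypts, Heyl -0.30 to 0.83 in DBZ crypts and -1.26 to 1.45 in control cells, and Hes6 -0.39 to 0.0626 in enteroendocrine cells. The goblet sort against control cells gave -1.0 to 1.7 for Heyl and -0.69 to 0.92 for Dtx1. Few counts limit Hes5, Hey1 and Heyl most.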
